A study of Ovis aries with 9 samples.

Results

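GAD1, GAD2, SLC32A1, SLC17A6, SLC17A7, SLC6A11, ABAT and SLC38A1, which encode enzymes and transporters of the neurotransmitters GABA and glutamate, were examined in the sheep hypothalamus around puberty. These 8 genes were chosen by name, and 7 of them matched a symbol of the RefSeq sheep annotation, among 21284 coding genes in all. GAD1 had no matching symbol and is not analysed here. The level of a gene is the sum of the FPKM values of its coding transcripts, FPKM being the fragments of a transcript scaled for its length and for sequencing depth, so that levels can be set side by side between genes of different length.

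Bulk tissue of 9 Dolang ewes was sequenced, with 1 library per animal and 3 animals each before puberty (120 to 121 days of age), at puberty (130 to 131 days) and after it (150 to 151 days). The ewes were kept under like conditions and given pentobarbital sodium before dissection. Their stage was judged from oestrous behaviour and the look of the vulva, and stage and age cannot be told apart. The mapped reads ran from 19347227 in Puberty 2 to 23966519 in Prepuberty 3.

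GABA is the main inhibitory transmitter of the hypothalamus and is made from glutamate by the glutamate decarboxylases, of which GAD2 is the form linked to nerve terminals. SLC32A1 (VGAT) loads GABA and glycine into synaptic vesicles, while SLC17A6 (VGLUT2) and SLC17A7 (VGLUT1) load glutamate, and in the brain VGLUT2 prevails in the hypothalamus and thalamus and VGLUT1 in the cortex and hippocampus. Released GABA is cleared by transporters such as SLC6A11 (GAT3), mostly on astrocytes, and broken down by ABAT (GABA transaminase), and SLC38A1 imports glutamine, from which neurons rebuild both transmitters.

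Puberty 2 stood apart from the other 8 libraries before any stage was compared. It held 10970 genes at 0.5 FPKM or more, against 12985 to 13687 in the others, and its summed coding FPKM was 377780, against 228754 to 260446. The stage differences of the members are therefore given with and without it. The labelled tissue was checked against 18 hypothalamic marker genes, of which 9 did not reach 0.5 FPKM in any library. Among these, GNRH1 and FEZF1 were listed at 0 throughout and NKX2-1 reached at most 0.262 FPKM. The highest of the list were SST at 4.27 to 107 FPKM, TRH at 0.824 to 36.8 FPKM and POMC at 2.09 to 22.4 FPKM. The rest peaked lower, with AVP at 0.551 to 10.4 FPKM, OTP at 0 to 4.91 FPKM and OXT at 0.319 to 4.81 FPKM. TAC3 ran from 0.156 to 3.49 FPKM, HCRT from 0.144 to 1.68 FPKM and PMCH from 0 to 0.699 FPKM. The libraries also differed in the summed level of genes of neighbouring tissues. The choroid plexus and ependymal list ran from 12.6 to 7645 FPKM and the pituitary list from 0.125 to 203 FPKM. In such bulk samples, fewer cells of a type and less RNA per cell cannot be told apart.

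Starting with GABA synthesis, GAD2 (chromosome 13, 26035999 to 26100338, ARS-UI_Ramb_v3.0, represented by a single transcript) was measured at 1.76, 44.8 and 7.12 FPKM in Prepuberty 1 to 3. At puberty its levels were 13.0, 1.96 and 3.47 FPKM, and after puberty 9.80, 20.7 and 7.12 FPKM. The highest and the lowest library belonged to the same stage, prepuberty, and lay 25.4-fold apart, so the ranges of the 3 stages overlapped. The stage means were 17.9 ± 23.5, 6.14 ± 5.98 and 12.5 ± 7.18 FPKM (SD, n = 3 each), with an SD above the mean before puberty.

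SLC32A1 (chromosome 13, 67549013 to 67553944, a single transcript), the vesicular GABA transporter, was measured at 6.59, 0.830 and 0.158 FPKM before puberty. Its levels were 1.95, 7.31 and 0.617 FPKM at puberty and 0.709, 5.24 and 1.44 FPKM after puberty. Each stage held a library above 5 FPKM beside others below 2 FPKM. The libraries highest in SLC32A1 were not those highest in GAD2: GAD2 exceeded SLC32A1 in 7 of 9 libraries, but not in Prepuberty 1 and Puberty 2, which had the 2 highest values of SLC32A1 and the 2 lowest of GAD2. Across the 9 libraries the Pearson r of the 2 genes on the log2(FPKM + 1) scale was -0.36 (Spearman rho -0.27, exact permutation p = 0.338 for r and 0.493 for rho). Without Prepuberty 1 and Prepuberty 2, the 2 libraries farthest from the median of GAD2, r was -0.03. Without Puberty 2 alone it was -0.16 (rho 0.02), so the negative value depended on few libraries.

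SLC17A6 (chromosome 21, 19967231 to 20008001, a single transcript), the vesicular glutamate transporter typical of the hypothalamus, was measured at 4.31, 53.3 and 11.0 FPKM before puberty. Its levels were 13.7, 2.83 and 13.5 FPKM at puberty and 0.581, 31.8 and 8.39 FPKM after puberty. Prepuberty 2 and Postpuberty 2 were the highest libraries, Postpuberty 1 was the lowest, and the whole range was 91.7-fold. SLC17A6 exceeded GAD2 in 8 of 9 libraries, the exception being Postpuberty 1, and both genes were highest in the same 2 libraries. The cortical and hippocampal counterpart SLC17A7 (chromosome 14, 55625035 to 55636376, a single transcript) followed another order.

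SLC17A7 was measured at 0.846, 0.483 and 19.0 FPKM before puberty. It was at 6.91, 3.41 and 51.7 FPKM at puberty and at 25.3, 1.11 and 8.08 FPKM after puberty. Every stage thus held a library near or below 3.5 FPKM and another at 19.0 FPKM or above, a range of 107-fold over all 9. The highest library in SLC17A6, Prepuberty 2, was the lowest in SLC17A7, and the lowest in SLC17A6, Postpuberty 1, was above all but Puberty 3 in SLC17A7. Over the 9 libraries r between them was -0.39 and rho -0.37 (exact permutation p = 0.301 for r and 0.336 for rho). This r turned to 0.16 without the 2 libraries farthest from the median of SLC17A6, and was -0.47 (rho -0.45) without Puberty 2.

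**Figure D1:**
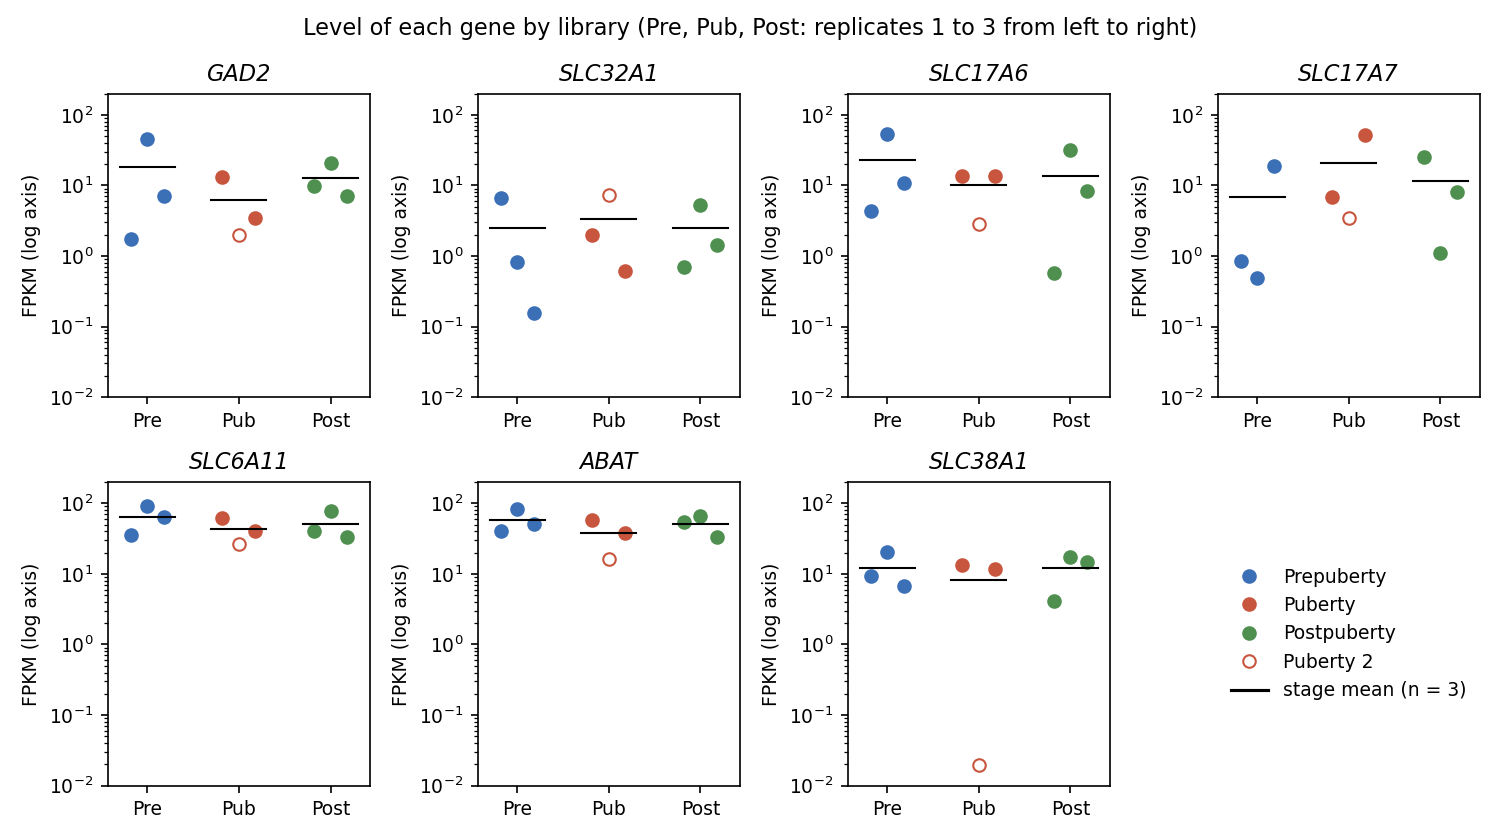
Level of each of the 7 genes in FPKM (log axis) in the 3 libraries of each stage, with replicates 1 to 3 from left to right, the open circle for Puberty 2 and the bar for the stage mean (n = 3). GAD2, SLC32A1, SLC17A6 and SLC17A7 spread over more than 25-fold within the series with overlapping stages, while SLC6A11 and ABAT stay within 3.44-fold and 5.03-fold.

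The genes of GABA clearance were higher and more even. SLC6A11 (chromosome 19, 54821864 to 54945658, a single transcript) was measured at 35.8, 92.3 and 64.1 FPKM before puberty, 62.0, 26.8 and 40.7 FPKM at puberty, and 39.8, 78.1 and 33.4 FPKM after puberty. Puberty 2 was the lowest library and the remaining 8 lay within 2.76-fold. Both SLC6A11 and ABAT exceeded GAD2 in every library measured.

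ABAT (chromosome 24, 8100774 to 8186492) was measured at 39.8, 81.9 and 50.3 FPKM before puberty, 58.0, 16.3 and 38.3 FPKM at puberty, and 53.6, 65.1 and 33.4 FPKM after puberty. Puberty 2 was again the lowest, and the other 8 libraries lay within 2.45-fold. The sum joined 2 transcripts. XM_042239901.1 gave 59.0% of the ABAT total and was the higher of the pair in 6 of 9 libraries, but its share ran from 1.05% in Puberty 2, where it was at 0.171 FPKM, to 82.9% in Postpuberty 3. XM_004020759.6 was steadier, at 5.71 FPKM in Postpuberty 3 and between 13.5 and 35.7 FPKM elsewhere.

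SLC38A1 (chromosome 3, 140196554 to 140273652) was measured at 9.45, 20.3 and 6.79 FPKM before puberty, 13.2, 0.0199 and 11.6 FPKM at puberty, and 4.12, 17.5 and 14.6 FPKM after puberty. Puberty 2 was almost without signal, whereas the other 8 libraries lay within 4.94-fold. The annotation holds 14 coding transcripts of SLC38A1, of which 4 reached a mean of 0.5 FPKM, and XM_027967425.3 gave 64.3% of the total. In Puberty 2, 13 of the 14 were listed at 0. The astrocytic glutamate transporter SLC1A2 showed the same feature in that library, at 0.00353 FPKM against 23.1 to 76.0 FPKM elsewhere. An FPKM listed at 0 may be an estimate that failed, and which of these it is was not tested.

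In the order of median levels, ABAT (50.3 FPKM) and SLC6A11 (40.7 FPKM) led, although SLC6A11 was the higher of these neighbours in 7 of 9 libraries. SLC38A1 (11.6 FPKM), SLC17A6 (11.0 FPKM), GAD2 (7.12 FPKM) and SLC17A7 (6.91 FPKM) followed, and their order was not the same in every library. SLC17A6 was above GAD2 in 8 of 9 libraries and above SLC38A1 in 6 of 9, while GAD2 was above SLC17A7 in 4 of 9 and SLC17A6 above SLC17A7 in 5 of 9. SLC32A1 (1.44 FPKM) was last, below SLC38A1 in 8 of 9 libraries.

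Excitatory to inhibitory ratios were formed within each library, which removes any scaling between libraries. SLC17A6 over SLC32A1, the ratio of the vesicular glutamate to the vesicular GABA transporter, was 0.654, 64.2 and 69.5 before puberty, 7.01, 0.387 and 21.9 at puberty, and 0.820, 6.08 and 5.84 after puberty. It lay below 1 in 1 library of every stage and above 5 in the others, a span of 179.7-fold. No offset was added, and the highest value, in Prepuberty 3, divides by SLC32A1 at only 0.158 FPKM. An exact permutation test of the F statistic over the stages gave p = 0.593 (adjusted p = 0.918 by Benjamini-Hochberg over 7 ratios), where the smallest p this design allows is 0.00357. With 1 FPKM added to both genes, the same exact permutation test gave p = 0.729.

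With SLC17A7 added to the numerator, the ratio to SLC32A1 was 0.783, 64.8 and 189.8 before puberty, 10.5, 0.853 and 106 at puberty, and 36.6, 6.29 and 11.5 after puberty. Postpuberty 1 thus moved from below 1 to well above it once the cortical form was counted. The same numerator over GAD2 was more even, at 2.93, 1.20 and 4.21 before puberty, 1.59, 3.19 and 18.8 at puberty, and 2.65, 1.59 and 2.31 after puberty. Glutamate transporter mRNA thus exceeded GAD2 mRNA in all 9 libraries, with Puberty 3 highest. Neither ratio passed an exact permutation test between stages (p = 0.918 over SLC32A1 and p = 0.582 over GAD2).

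SLC17A6 over SLC17A7, which sets the subcortical against the cortical form, was 5.10, 110.3 and 0.577 before puberty, 1.98, 0.828 and 0.261 at puberty, and 0.0229, 28.8 and 1.04 after puberty. It had the widest span of the 6 ratios, 4812-fold, and ran from below 1 to above 1 within each stage (exact permutation p = 0.532). The ends of this span rest on low values, SLC17A6 at 0.581 FPKM in Postpuberty 1 and SLC17A7 at 0.483 FPKM in Prepuberty 2. SLC32A1 over GAD2 was 3.74, 0.0185 and 0.0222 before puberty, 0.150, 3.74 and 0.178 at puberty, and 0.0723, 0.253 and 0.202 after puberty. Prepuberty 1 and Puberty 2 alone had more of the vesicular transporter than of the enzyme, and the stages again overlapped (exact permutation p = 0.739, and 0.0571 without Prepuberty 1, adjusted 0.400).

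On the clearance side, ABAT over GAD2 ranged from 1.83 in Prepuberty 2 to 22.6 in Prepuberty 1 (exact permutation p = 0.700), so both extremes fell within prepuberty. The 6 ratios given here had an adjusted p of 0.918 with Puberty 2 and of 1 without it, by Benjamini-Hochberg adjustment of exact permutation tests.

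**Figure D2:**
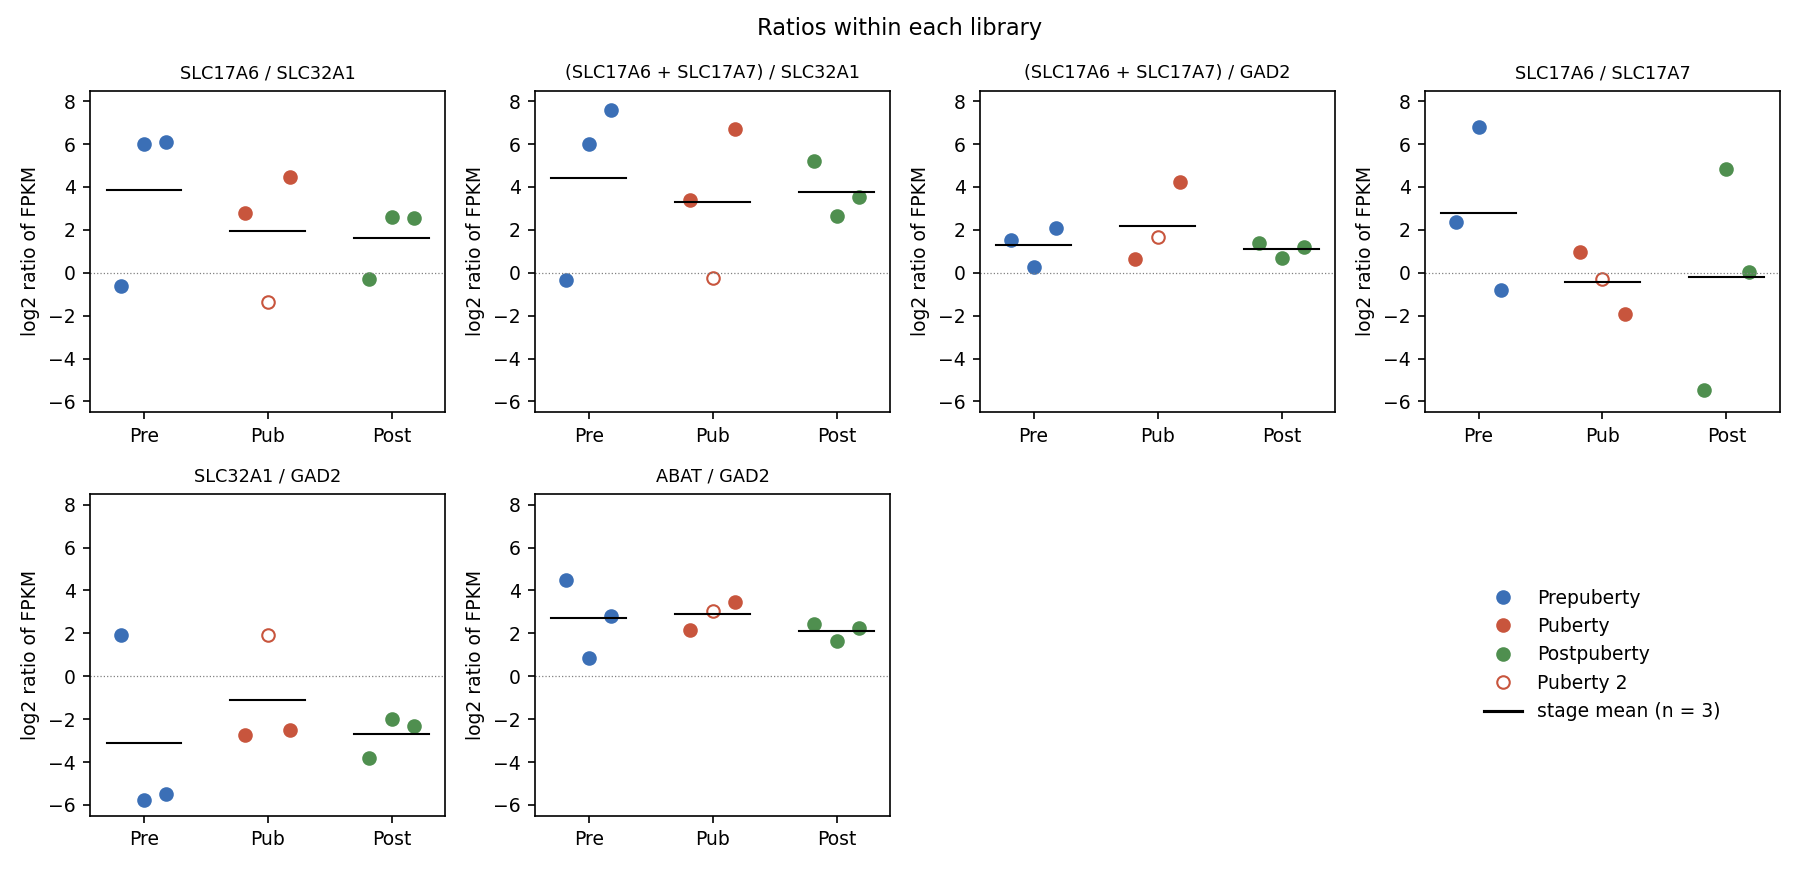
The 6 ratios of FPKM within each library on a log2 axis, by stage, with replicates 1 to 3 from left to right, the open circle for Puberty 2 and the bar for the stage mean (n = 3). SLC17A6 / SLC17A7 spans 4812-fold and SLC17A6 / SLC32A1 179.7-fold, and in no panel do all 3 stages separate.

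Stages were then compared for every gene by limma on log2(FPKM + 1), with Benjamini-Hochberg adjustment over 14238 genes. No member passed an adjusted p below 0.05 with a fold change of at least 2 (log2 of 1) in any of the 3 comparisons, and the share of all genes that passed was also 0%. At an unadjusted p below 0.05, 0 of 7 members passed in each comparison, against 1.82% of all genes for prepuberty minus puberty, 2.14% for puberty minus postpuberty and 0.815% for prepuberty minus postpuberty. Likewise 0 of 7 members had stages with no overlap, against 5.16%, 7.32% and 4.57% of all genes in the same order.

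Without Puberty 2 the members' counts were again 0 of 7 in each comparison. The share of all genes at an unadjusted p below 0.05 was then 1.66%, 2.11% and 1.87% in the same order, that of genes without overlap 11.7%, 14.1% and 4.53%, and 0% passed after limma and Benjamini-Hochberg adjustment. In the F test over the 3 stages, 1.63% of all genes and 0 of 7 members had an unadjusted p below 0.05, the smallest among the members being 0.315 in SLC17A7.

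For prepuberty minus puberty, SLC17A7 stood at -1.69 on the log2 scale (SE 1.30, 95% interval half-width 2.93, limma adjusted p = 0.838), and at -0.64 without Puberty 3 and -2.89 without Prepuberty 3. SLC38A1 stood at 1.08 (SE 0.97, limma adjusted p = 0.838), and this difference was -0.16 without Puberty 2. GAD2 (0.83), ABAT (0.70), SLC17A6 (0.69) and SLC6A11 (0.54) also had positive values and SLC32A1 (-0.43) a negative one, each with a limma adjusted p of 0.838 or above. Without Puberty 2 the 4 positive values were 0.35, 0.21, 0.05 and 0.24, SLC32A1 turned to 0.21, and SLC17A7 stood at -2.43 (SE 1.47, limma adjusted p = 1). The shift of all genes was 0.14 at the median with Puberty 2 and -0.02 without it.

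For puberty minus postpuberty with all 9 libraries, GAD2 had the largest difference, -1.12 (SE 0.96, limma adjusted p = 0.780), followed by SLC38A1 with -1.002 (SE 0.97, limma adjusted p = 0.780). SLC17A7 stood at 0.62, ABAT at -0.54, SLC17A6 at 0.25, SLC32A1 at 0.20 and SLC6A11 at -0.20. Without Puberty 2, SLC17A7 had the largest difference, 1.36 (SE 1.47, limma adjusted p = 1), SLC17A6 stood at 0.89, GAD2 at -0.65 and ABAT at -0.051. SLC38A1 (0.24), SLC6A11 (0.09) and SLC32A1 (-0.44) changed sign. Here the median of all genes was -0.19 with Puberty 2 and -0.03 without it.

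For prepuberty minus postpuberty, which leaves Puberty 2 out of the difference itself, the members ran from -1.07 in SLC17A7 to 0.94 in SLC17A6, each with a limma adjusted p of 1. The value of SLC17A7 was -0.20 without Postpuberty 1 and -2.27 without Prepuberty 3. That of SLC17A6 turned to -0.22 without Postpuberty 1 and was 1.97 without Postpuberty 2. Over the 3 stages together the smallest unadjusted p of the moderated F test was 0.349 in ABAT, against 1.22% of all genes below 0.05 (limma adjusted p from 0.990 to 0.991 for the members). The 95% intervals for prepuberty minus puberty reached from 1.04 (SLC6A11) to 2.93 (SLC17A7) to either side on the log2 scale. Smaller differences were not detectable with 3 animals per stage. The intervals are not adjusted for the number of genes, so a larger difference could also miss the adjusted threshold.

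**Figure D3:**
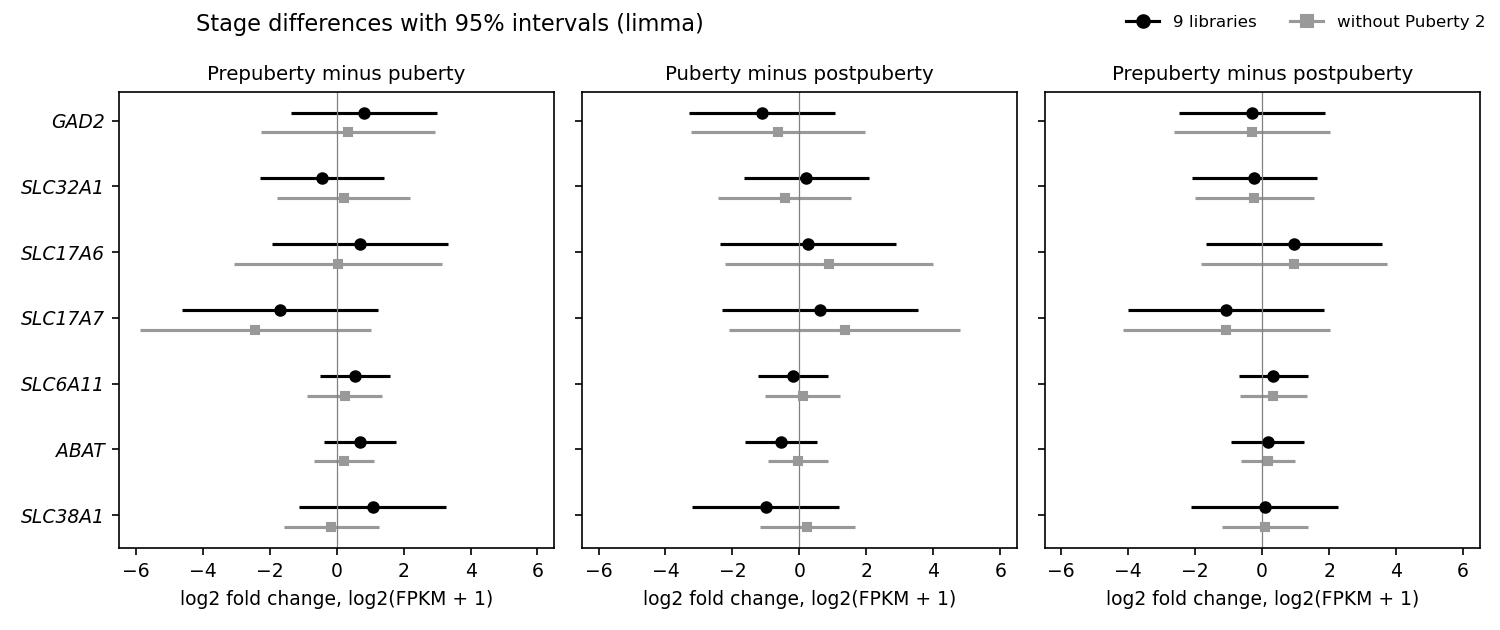
Difference between stages of each gene on the log2(FPKM + 1) scale, with 95% intervals from limma, for all 9 libraries (black circles) and without Puberty 2 (grey squares). Every interval crosses 0, and the value of SLC38A1 for prepuberty minus puberty is 1.08 with Puberty 2 and -0.16 without it.

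The members differed in how much they varied between animals. Over the 8 libraries other than Puberty 2, the SD of log2(FPKM + 1) was 1.93 in SLC17A7, 1.56 in SLC17A6, 1.27 in GAD2 and 0.96 in SLC32A1, against a median of 0.28 over all genes tested. These 4 genes of synthesis and vesicle loading lay at percentiles 99.8, 99.5, 98.9 and 96.8 of the SD of all genes. SLC38A1 (0.68, percentile 90.2), SLC6A11 (0.54, percentile 83.0) and ABAT (0.42, percentile 72.5) varied less. With all 9 libraries SLC38A1 was at percentile 98.3, above GAD2 (98.1) and SLC32A1 (94.3), while SLC6A11 (69.7) and ABAT (75.7) stayed lower. The SD on this scale is smaller for low genes, and genes of like level were not compared. These percentiles describe the libraries and carry no test.

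Neuronal content was compared through the mean log2(FPKM + 1) of 11 neuron markers such as SNAP25 and SYT1. It was 5.08, 6.61 and 6.10 before puberty, 6.31, 4.72 and 6.14 at puberty, and 5.14, 6.38 and 6.36 after puberty. Prepuberty 1, Puberty 2 and Postpuberty 1 formed a lower set, 0.95 below the nearest of the other 6 libraries, with 1 library from each stage, so no correlation is given over all 9. SLC17A6 was at 0.581 to 4.31 FPKM in the 3 lower libraries and at 8.39 FPKM or more in the 6 others. GAD2, SLC17A7 and SLC32A1 were not split in this way: SLC32A1 had its 2 highest values, 6.59 and 7.31 FPKM, in the lower set. The ratio of SLC17A6 to SLC32A1 was below 1 in this lower set alone (0.654, 0.387 and 0.820).

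Within the 6 libraries of the higher set, SLC38A1 followed the neuron markers with r = 0.90 and rho = 1 (exact permutation p = 0.0194 for r and 0.00278 for rho). After adjustment over 17 relations these became 0.173 and 0.0472, so the rank order passed and r did not, in libraries chosen after the relations over all 9 had been seen. An exact permutation p of 0.00278 is the smallest that rho can have with 6 libraries. A less than perfect rank order could therefore not have passed alone. GAD2 had r = 0.88 and rho = 0.71 (exact permutation p = 0.0306 and 0.136), and SLC17A6 r = 0.74 and rho = 0.66 (exact permutation p = 0.0917 and 0.175). SLC17A7 went the other way, with r = -0.89 and rho = -0.89 (exact permutation p = 0.0250 and 0.0333, adjusted 0.173 and 0.283). SLC32A1 (r = 0.38, rho = 0.60), SLC6A11 (0.48, 0.49) and ABAT (0.61, 0.60) had smaller r, with exact permutation p-values of 0.192 or above. With 6 libraries, leaving out a further 2 would leave fewer than the 6 needed, and these values were not checked in that way.

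Each member was also expressed relative to the neuron marker mean of its library. The SD over 9 libraries then was 1.03 in place of 1.56 for SLC17A6, 0.86 in place of 1.35 for SLC38A1 and 0.96 in place of 1.33 for GAD2. For SLC32A1 it was 1.52 in place of 1.06 and for SLC17A7 1.97 in place of 1.83. It was 0.48 in place of 0.60 for SLC6A11 and 0.56 in place of 0.66 for ABAT. Without Puberty 2 it was 0.43 in place of 0.68 for SLC38A1 and 0.50 in place of 0.54 for SLC6A11. ABAT then rose, to 0.59 in place of 0.42, while the other members kept their direction. No member passed a test between stages on this scale (exact permutation tests, adjusted p from 0.796 to 0.896, and 0.932 throughout without Puberty 2). The smallest p with any library left out was 0.0393 in SLC17A6 without Postpuberty 2 (exact permutation test, adjusted 0.275). None of 7 relations of the members with 8 astrocyte markers passed either, with adjusted p from 0.368 to 0.952 by exact permutation of r over 9 libraries. Without Puberty 2, r moved from -0.57 to -0.85 in GAD2 (exact permutation p = 0.0108, adjusted 0.130), from -0.40 to -0.72 in SLC6A11 (exact permutation p = 0.0386, adjusted 0.131) and from -0.079 to -0.60 in ABAT (exact permutation p = 0.106, adjusted 0.226). Without Prepuberty 1 and Postpuberty 2, the libraries farthest from the median of the astrocyte markers, r was -0.21 in GAD2 and moved from 0.21 to 0.84 in SLC17A7 (exact permutation p = 0.0127, adjusted 0.130).

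**Figure D4:**
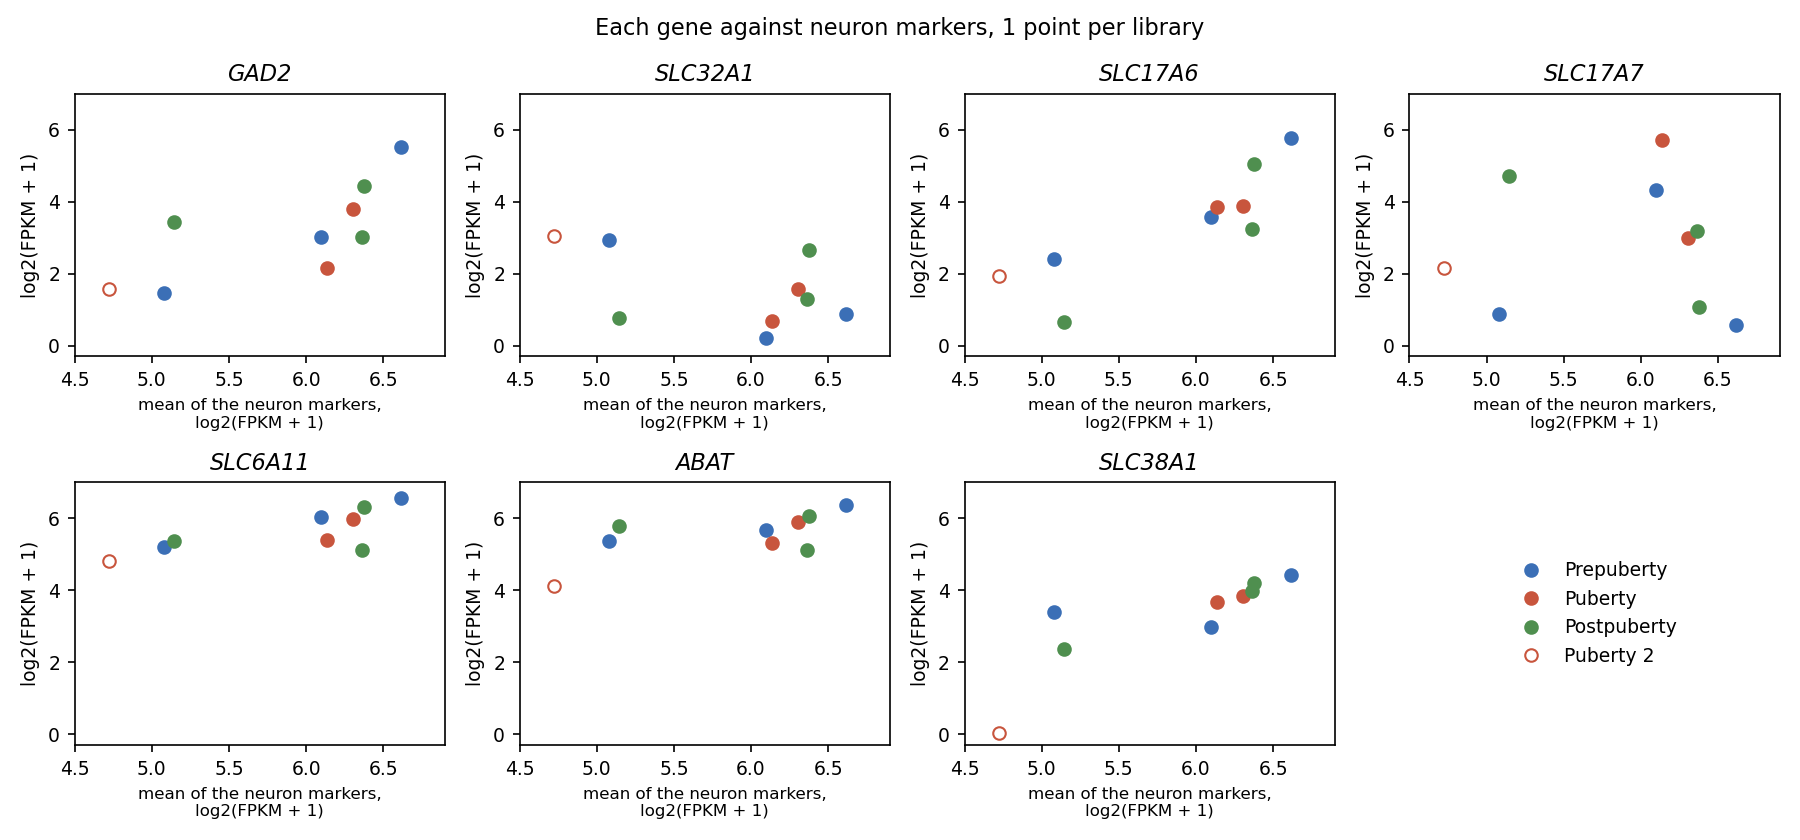
Level of each gene, as log2(FPKM + 1), against the mean log2(FPKM + 1) of 11 neuron markers in the 9 libraries, coloured by stage, with the open circle for Puberty 2. Prepuberty 1, Puberty 2 and Postpuberty 1 lie at 4.72 to 5.14 on the horizontal axis, apart from the other 6 at 6.10 to 6.61.

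Genes of neighbouring brain regions were set beside the vesicular glutamate transporters. NEUROD2, a transcription factor of cortical and hippocampal excitatory neurons, was at 0.0721, 0.341 and 1.91 FPKM before puberty, 1.04, 1.08 and 4.80 FPKM at puberty, and 4.31, 0.289 and 0.862 FPKM after puberty. It was highest in Puberty 3, Postpuberty 1 and Prepuberty 3, which were also the 3 highest libraries of SLC17A7. NEUROD2 was singled out after its values were seen, and other genes of the list had another order: EMX2 (2.94 FPKM) and BCL11B (1.54 FPKM) were highest in Prepuberty 2, the lowest library of SLC17A7, and EMX2 was listed at 0 in Prepuberty 3. Of the 8 cortical and hippocampal genes listed, 4 did not reach 0.5 FPKM in any library, among them TBR1, EMX1 and FEZF2. The list summed to 5.33 FPKM in Prepuberty 2 against 2.70 FPKM in Prepuberty 3, and to 1.37 to 5.33 FPKM before puberty, 1.45 to 7.98 FPKM at puberty and 1.91 to 7.96 FPKM after puberty.

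LHX2 and LHX9, transcription factors of the thalamus among other regions, were highest in Prepuberty 2 (4.31 and 3.07 FPKM) and Postpuberty 2 (1.53 and 1.85 FPKM), the 2 libraries highest in SLC17A6. In the other 7 libraries LHX2 reached at most 0.389 FPKM and LHX9 at most 0.418 FPKM. These 2 genes were picked from the thalamic list of 6 after their values were seen. TCF7L2 was also highest in Postpuberty 2 (11.8 FPKM) but stood at 3.16 FPKM in Prepuberty 2, within the 2.03 to 4.60 FPKM of the others. The remaining genes of the list had another order: PRKCD was lowest in Postpuberty 2 (1.15 FPKM), GBX2 in Prepuberty 2 (0.651 FPKM) was above Postpuberty 1 alone, and CALB2 was at 48.2 FPKM in Prepuberty 2 against 93.6 FPKM in Puberty 1. The list, led by CALB2, summed to 42.4 to 60.9 FPKM before puberty, 63.9 to 98.4 FPKM at puberty and 13.9 to 84.9 FPKM after puberty. The part of either gene list in the levels of SLC17A6 and SLC17A7 was not tested.

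**Figure D5:**
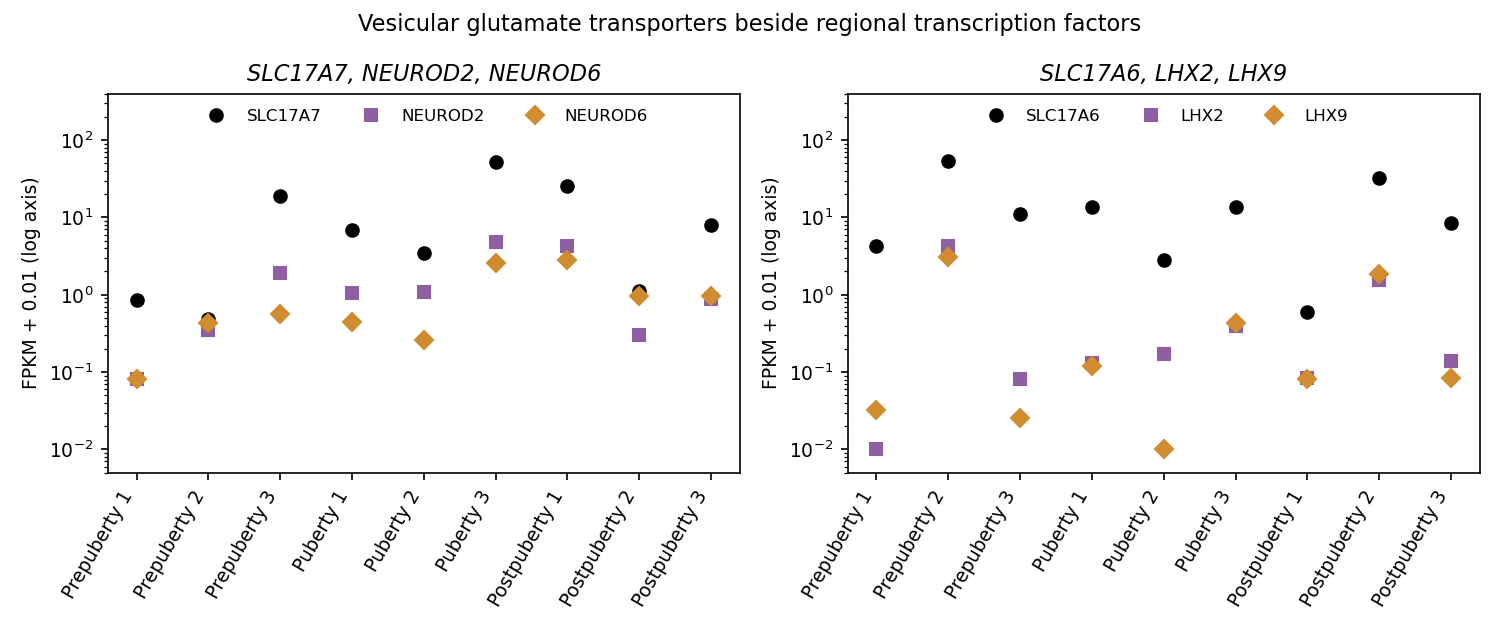
SLC17A7 beside NEUROD2 and NEUROD6 (left) and SLC17A6 beside LHX2 and LHX9 (right) in each library, as FPKM + 0.01 on a log axis, 1 symbol per gene. NEUROD2 is highest in the 3 libraries highest in SLC17A7, whereas NEUROD6 in Prepuberty 3 (0.553 FPKM) is below Postpuberty 2 (0.962 FPKM) and Postpuberty 3 (0.956 FPKM), and LHX2 and LHX9 in the 2 libraries highest in SLC17A6.

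Genes most like the 3 vesicular transporters were ranked by Pearson r of log2(FPKM + 1) over the 8 libraries other than Puberty 2, among 12321 genes with a mean of at least 1 FPKM, as a description. SLC17A6 was followed most closely by COBL (0.99), ENTPD6 (0.99), LOC114115593 (0.98), MRPL34 (0.98) and LHFPL5 (0.97). For SLC17A7 the closest were PALB2 (0.98), BLACAT1 (0.97), NEUROD2 (0.95), SEMA6D (0.94) and KIF1C (0.93). For SLC32A1 they were GRAMD4 (0.97), AP5S1 (0.92), INSIG2 (0.92), THYN1 (0.92) and QNG1 (0.90). Most of these genes varied over a much narrower range than the transporters, such as PALB2 at 2.11 to 2.85 FPKM.

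The wider pathway was described from 24 further genes of GABA and glutamate handling, of which 23 were matched and 22 passed the filter. None of the 22 was called in any comparison, and 1 had an unadjusted p below 0.05 for prepuberty minus puberty, against 1.82% of all genes. GLUL, the astrocytic glutamine synthetase, was the highest of them at 303 to 569 FPKM, and SLC6A12, a betaine and GABA transporter, the lowest at 0 to 1.28 FPKM. The smallest p of the moderated F test belonged to SLC25A12, the mitochondrial aspartate and glutamate carrier.

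SLC25A12 was at 1.01, 8.09 and 4.63 FPKM before puberty, 1.46, 0 and 1.32 FPKM at puberty, and 2.48, 2.42 and 2.18 FPKM after puberty. All 3 puberty libraries lay below all 3 of postpuberty, while prepuberty overlapped both. Its difference for prepuberty minus puberty was 1.39 (SE 0.55, unadjusted p = 0.0316, limma adjusted p = 0.838), and 0.97 without Puberty 2 (SE 0.55, limma adjusted p = 1). SLC38A5, an importer of glutamine, and SLC38A2, its relative, had the next smallest p of the F test, 0.312 and 0.321, with levels of 5.74 to 21.0 and 16.4 to 61.0 FPKM. SLC38A3, a glutamine transporter of astrocytes, was the other gene of the list whose libraries of puberty (8.82, 9.46 and 10.1 FPKM) and postpuberty (7.40, 8.72 and 7.84 FPKM) did not overlap, 2 of 22 against 7.32% of all genes. Without Puberty 2, SLC25A13, a relative of SLC25A12, joined them, 3 of 22 against 14.1% of all genes. In the other comparisons 0 of the 22 were without overlap, with or without Puberty 2, against 5.16% and 11.7% of all genes for prepuberty and puberty and 4.57% and 4.53% for prepuberty and postpuberty.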

How the data were processed

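RNA of 9 hypothalamus samples was sequenced by the authors, who trimmed the reads with Trimmomatic (version 0.32 in the submitters' processing notes), aligned them to ARS-UI_Ramb_v3.0 with HISAT2 and assembled transcripts with StringTie. The deposited values are FPKM for each of 115108 transcripts, as the authors' tools gave them, although the table is described as raw counts. Because they are not whole numbers, no count test was used, and the counts that the authors corrected and tested with RUVseq and edgeR were not used here. The depth is known only as mapped reads per library (19347227 to 23966519 in the study's statistics), and the reads behind a single value are not known, so no counting intervals are given.

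Stages and replicate numbers were taken from the sample labels. FPKM values of coding transcripts were summed per gene by RefSeq symbol, and 76682 of 76684 coding transcripts were matched. GAD1, SLC25A18, TUBB3, FOLR1 and GH1 had no match and are not analysed here, so GAD2 alone stands in ratios planned with GAD1 and the planned ratio of GAD2 to GAD1 was not run. The ratios were adjusted as a family of 7, of which 1 is not reported here. Gene coordinates are 1-based.

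Genes with a mean of at least 0.5 FPKM in at least 1 stage (14238, or 14209 without Puberty 2) were fitted with limma 3.58.1 in R 4.3.3 on log2(FPKM + 1), with a variance trend and all 9 libraries in 1 fit. Fold changes on this scale understate those of low genes. The p-values were adjusted by Benjamini-Hochberg over all genes for each comparison, and a gene was called at an adjusted p below 0.05 where its log2 fold change was 1 or more in size. The fit was tested on simulated data. Ratios, levels relative to neuron markers and relations across libraries were tested by exact permutation in Python 3.11.15 with numpy 2.4.6, and scipy 1.17.1 gave the ranks. The F statistic was counted in its upper tail, and relations were tested two-sided. With 3 animals against 3 a two-sided permutation test cannot give a p below 0.1. Relations with neuron markers had been planned over all 9 libraries. They had been computed so, with r past an adjusted p of 0.05 in 2 of 7 members (SLC17A6 and SLC38A1) and rho in 1 (SLC38A1), when the marker means were seen to fall into separate sets. They were then computed in the 6 higher libraries in place of all 9.

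Named are all members, those of the listed pathway genes that were called, highest, lowest or smallest in F test p, and the 5 genes most like each vesicular transporter. NEUROD2, LHX2, LHX9, NEUROD6, SLC1A2, SLC25A13, SLC38A3 and the other regional genes were singled out after their values were seen. The members and gene lists were chosen with earlier results of these data known. Animals differ between stages, and replicate numbers do not pair them. Alternatives covered scaling, pseudocount, filter, variance trend, library weights, a block for replicate number, the leading transcript alone, SNAP25 alone as neuron marker, and leaving out each library.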

Additional observations from a re-analysis of the deposited data

How the results depend on the processing

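No member was called under any of 18 alternatives it could be fitted in, SLC32A1 being below the filter at 5 FPKM, and none of 21 differences between stages passed the thresholds. The sign of these differences was less steady: it was opposite in 36 of 375 refits, affecting 16 of the 21. The signs held under both scalings, both filters (6 members at 5 FPKM), the other pseudocount and the replicate block. Scaling to equal totals moved the median of all genes from 0.14 to 0.27 for prepuberty minus puberty and from -0.19 to -0.29 for puberty minus postpuberty. Scaling by the upper quartile moved these medians the other way, to 0.084 and -0.099. With library weights, which ran from 0.0653 in Puberty 2 to 8.13 in Prepuberty 3, prepuberty minus puberty was -0.086 in GAD2, -0.22 in SLC17A6, -0.62 in SLC38A1 and -0.19 in SLC17A7. Puberty minus postpuberty was then -0.30 in SLC32A1, 0.21 in SLC6A11, 0.082 in ABAT and 0.066 in SLC38A1, and prepuberty minus postpuberty 0.89 in SLC17A7 and -0.56 in SLC38A1. The cause was not tested. Among all genes these weights gave 4, 1 and 0 calls in the pairwise comparisons and 3 in the F test, none of them a member. With the leading transcript alone, prepuberty minus postpuberty was -0.089 in ABAT and -0.051 in SLC38A1.

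Leaving out each library in turn, prepuberty minus puberty ran from -0.27 to 1.76 in GAD2, from -1.23 to 0.21 in SLC32A1, from -0.23 to 1.45 in SLC17A6, from -2.89 to -0.64 in SLC17A7 and from -0.16 to 1.74 in SLC38A1. Puberty minus postpuberty ran from -0.44 to 0.74 in SLC32A1, from -0.91 to 1.28 in SLC17A6, from -0.43 to 1.49 in SLC17A7, from -0.50 to 0.16 in SLC6A11 and from -1.66 to 0.24 in SLC38A1. Prepuberty minus postpuberty ran from -1.39 to 0.64 in GAD2, from -1.02 to 0.33 in SLC32A1, from -0.22 to 1.97 in SLC17A6, from -2.27 to -0.20 in SLC17A7, from -0.13 to 0.39 in ABAT and from -0.50 to 0.43 in SLC38A1.

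Of the relations, r between SLC17A6 and SLC17A7 was 0.16, and those of the astrocyte markers with SLC32A1 and ABAT were -0.44 and 0.20, without the 2 libraries farthest from the median of the first measure. Without Puberty 2, r was 0.056 between SLC17A6 and SLC32A1 and -0.49 between the astrocyte markers and SLC38A1. Replicate numbers did not pair the libraries, since same-numbered pairs correlated from -0.31 to 0.51, 2 of 9 above 0.1, and 3 of 9 libraries correlated best with their own number. With the replicate block the members called stayed at 0, as did all genes called. The exact permutation p of SLC32A1 over GAD2 ran from 0.0571 to 1 with each library left out, and that of SLC17A6 relative to neuron markers from 0.0393 to 0.836. The smallest adjusted p of these tests over all ratios and members was 0.275.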
